A study of Mus musculus with 18 samples.

Results

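Gpnmb, Lgals3, Trem2, the C1q chain genes C1qa, C1qb and C1qc, and Mrc1 are 7 genes of lysosome-rich phagocytes and resident macrophages, taken here by symbol from the 22787 genes of a mouse RNA sequencing table. They were chosen by their signal in Raptor KO and Tsc2 KO progenitors, where several stood high, so their levels in the knockouts are a description with no test. The rule of choice does not use their levels in a progenitor cell line under inhibitors, which were tested, although earlier results of those cells were known as well. The study asked how mTORC1, the kinase complex that couples nutrients and growth factors to cell growth, bears on myeloid progenitors.

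The table held 18 libraries in 7 groups. Granulocyte-monocyte progenitors (GMPs) were sorted from mouse bone marrow as 10000 cells positive for FcgRII/III and kit, low for Ly6C and CD34, and negative for Sca, CD135 and CD127, and were sequenced by the SmartSeq2 low-input method. They came from Raptor KO mice set against Raptor fl/fl controls, and Tsc2 KO mice set against Tsc2 fl/fl controls, with 3 libraries in each group. Raptor is the scaffold that defines mTORC1, and Tsc2 is part of the complex that restrains it. DR-ER-Hoxb8 cells are an immortalized myeloid progenitor line held undifferentiated by estrogen-dependent Hoxb8. They differentiated for 3 days without beta-estradiol in rapamycin (100 nM), SL0101 (10 nM) or DMSO, all with SCF, in 2 libraries each. Rapamycin inhibits mTORC1 and SL0101 inhibits the RSK kinases, and their doses differed. The mice's age, strain, number per library and Cre driver are not given in the sources used here, nor is whether replicates were separate animals or cultures, so p-values measure the spread between these libraries. Since the genotype given for the Tsc2 samples is that of Raptor, groups were taken from the titles.

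GMP libraries held 2.48 to 3.52 M gene fragments, and Hoxb8 libraries 2.31 to 3.30 M. All values below are the authors' normalized fragment signal, in which 1 fragment was worth 0.663 to 1.12 units. Tsc2 averaged 95.1 ± 10.8 in Tsc2 KO against 248 ± 18.0 in Tsc2 fl/fl GMPs (SD, n = 3 each; log2 change -1.38, limma adjusted p = 1.7e-04). Rptor averaged 63.3 ± 5.61 in Raptor KO against 84.5 ± 5.11 in Raptor fl/fl GMPs (SD, n = 3 each; log2 change -0.41, limma adjusted p = 0.377). A gene total also counts fragments outside a deleted exon, and the deleted exons are not given here, so Rptor checks its labels only in part. Kit ran from 757 to 1284 in the 12 GMP libraries. Genes that mark GMPs were low in some Tsc2 libraries: Mpo, the myeloperoxidase gene, had 24793, 4820 and 7520 units in Tsc2 KO against 48343, 23511 and 52221 in Tsc2 fl/fl, and Elane, the neutrophil elastase gene, 6770, 1205 and 1897 in Tsc2 KO against 13737, 6417 and 16283 in Tsc2 fl/fl. Cd34 had 732, 199 and 273 units in Tsc2 KO against 1210, 701 and 1052 in Tsc2 fl/fl, and Fcgr3, one of the Fc receptor genes of the gate, 247, 64.6 and 79.3 in Tsc2 KO against 311, 44.0 and 279 in Tsc2 fl/fl. Replicates 2 and 3 of Tsc2 KO were below replicate 1 for all 4 genes, and replicate 2 of Tsc2 fl/fl was the lowest of its group for all 4. In the Raptor line Mpo had 37197 to 38005 units in Raptor KO against 44423 to 48895 in Raptor fl/fl, and Cd34 and Fcgr3 were also lower and Kit higher in Raptor KO without overlap, while Elane overlapped. The part of this in the members' levels was not tested. Genes of the Y chromosome were read in replicate 2 of Tsc2 KO and of Tsc2 fl/fl and were at or near 0 in the other 10 GMP libraries.

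As background, Gpnmb is a glycoprotein of lysosomes and phagosomes, and its gene is a known target of the MITF and TFE transcription factors. Galectin-3, from Lgals3, binds beta-galactosides and gathers on damaged lysosomes. Trem2 is a lipid-sensing receptor that signals through Tyrobp. The 3 C1q chains build the recognition molecule of the classical complement pathway and are made mainly by macrophages, and Mrc1 is the mannose receptor CD206. mTORC1 holds TFEB and TFE3 in the cytoplasm in many cell types, which ties it to lysosomal genes.

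The stretches just before the start sites of 5 of the genes are shown because Gpnmb, Lgals3 and Trem2 are the members that could be tested in Hoxb8 cells, and C1qb and C1qc are the neighbouring genes that stood highest in Tsc2 KO GMPs. RefSeq's GRCm38.p6 table held 6 of the 7 genes, without C1qa. The 250 bases before the start lie at chr6:49036268-49036517 (plus strand) for Gpnmb, chr14:47373610-47373859 (plus) for Lgals3, chr17:48346151-48346400 (plus) for Trem2, chr4:136886201-136886450 (minus) for C1qb and chr4:136892915-136893164 (minus) for C1qc. Each is written 5′ to 3′ on the gene's own strand, with motif matches in capitals.
Gpnmb: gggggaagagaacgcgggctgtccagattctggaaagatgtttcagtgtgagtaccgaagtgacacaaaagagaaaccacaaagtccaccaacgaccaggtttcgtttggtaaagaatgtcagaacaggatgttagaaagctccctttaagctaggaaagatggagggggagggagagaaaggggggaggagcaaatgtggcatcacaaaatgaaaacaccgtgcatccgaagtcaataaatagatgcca
Lgals3: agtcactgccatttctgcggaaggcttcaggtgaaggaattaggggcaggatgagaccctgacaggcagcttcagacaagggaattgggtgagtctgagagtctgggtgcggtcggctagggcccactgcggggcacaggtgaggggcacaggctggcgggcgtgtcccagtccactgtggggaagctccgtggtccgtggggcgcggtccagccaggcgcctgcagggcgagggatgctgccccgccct
Trem2: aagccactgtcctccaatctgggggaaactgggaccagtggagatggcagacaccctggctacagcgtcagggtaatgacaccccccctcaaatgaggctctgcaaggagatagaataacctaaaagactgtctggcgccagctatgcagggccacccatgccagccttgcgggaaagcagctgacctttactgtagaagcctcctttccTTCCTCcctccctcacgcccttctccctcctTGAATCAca
C1qb: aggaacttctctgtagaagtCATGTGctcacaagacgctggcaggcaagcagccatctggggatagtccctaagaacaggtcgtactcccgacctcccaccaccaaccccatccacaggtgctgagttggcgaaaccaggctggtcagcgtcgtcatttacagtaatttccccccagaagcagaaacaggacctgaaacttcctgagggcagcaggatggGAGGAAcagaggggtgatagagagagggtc
C1qc: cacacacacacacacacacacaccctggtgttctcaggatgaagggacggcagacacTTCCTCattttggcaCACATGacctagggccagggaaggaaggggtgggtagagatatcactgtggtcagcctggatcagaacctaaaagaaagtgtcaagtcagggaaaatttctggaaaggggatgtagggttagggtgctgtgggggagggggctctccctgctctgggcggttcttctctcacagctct
The motifs searched on both strands were the E-box CACGTG, the M-box core CATGTG, the CLEAR element, which contains the E-box, the PU.1 core GAGGAA and the AP-1 motif TGANTCA. Of 32851 promoters of this length, 6.021% held the E-box, 12.25% the M-box core, 0.2405% the CLEAR element, 23.25% the PU.1 core and 6.749% the AP-1 motif. The Gpnmb and Lgals3 windows held none of these letters. Trem2 held a PU.1 core on the opposite strand at -40 to -35 and an AP-1 motif at -9 to -3, counted from the start site. C1qb held an M-box core at -230 to -225 and a PU.1 core at -30 to -25. C1qc held both on the opposite strand, at -178 to -173 and -193 to -188. These matches describe letters and show no binding.

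Gpnmb had the widest range of the 7 genes in GMPs. It had 164.1, 580.5 and 407.8 units in Raptor KO libraries, against 0, 1.6 and 4.1 in Raptor fl/fl libraries. It had 258.5, 535.1 and 425.9 units in Tsc2 KO libraries, against 0, 1.7 and 0 in Tsc2 fl/fl libraries. Every knockout library of either line stood above every fl/fl library, and the fl/fl libraries held a handful of fragments or none. The means were 384 ± 209 in Raptor KO against 1.87 ± 2.05 in Raptor fl/fl, and 407 ± 139 in Tsc2 KO against 0.564 ± 0.977 in Tsc2 fl/fl (SD, n = 3 each). Counted as fragments, Raptor KO held 1447 against 7 in Raptor fl/fl, and Tsc2 KO held 1743 against 2 in Tsc2 fl/fl. Scaled by size factors these are ratios of 211 (95% Poisson interval 102.2 to 525.8) and 687 (190 to 5676), intervals that cover counting error only. In bulk RNA a change in the number of expressing cells and a change in RNA per cell cannot be told apart, here and in all that follows.

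**Figure D1:**
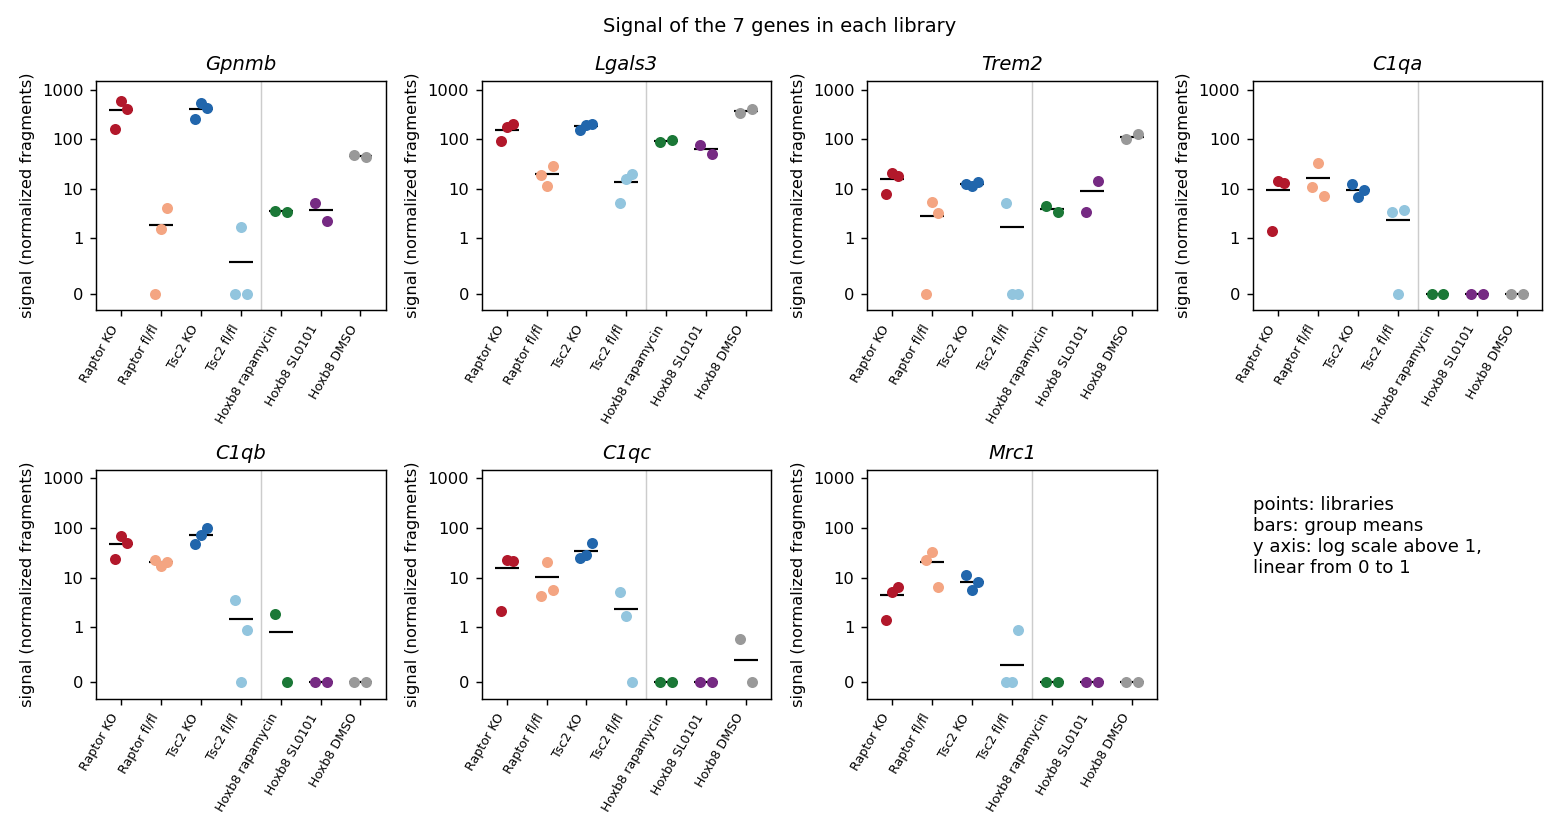
Signal of the 7 genes (y axis, normalized fragments, log scale above 1 and linear from 0 to 1) in each of the 18 libraries (points) with group means (bars), by group on the x axis. Gpnmb and Lgals3 stand above their fl/fl controls in both knockout groups. Lgals3 and Trem2 are highest in Hoxb8 cells in DMSO, where Gpnmb lies below both knockouts, and C1q and Mrc1 are at or near 0 in Hoxb8 cells.

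Lgals3, the galectin-3 gene, had the same order of groups with smaller distances. It had 91.3, 178.4 and 203.0 units in Raptor KO libraries, against 19.5, 11.7 and 29.2 in Raptor fl/fl libraries. It had 157.8, 193.9 and 205.9 units in Tsc2 KO libraries, against 5.2, 16.1 and 19.8 in Tsc2 fl/fl libraries. Neither pair of groups overlapped, and the ratios of means were 7.83 for Raptor KO over fl/fl and 13.6 for Tsc2 KO over fl/fl. Trem2, the lipid receptor, was far lower in GMPs. It had 7.8, 20.8 and 17.9 units in Raptor KO libraries against 0, 5.4 and 3.2 in Raptor fl/fl libraries, and 12.6, 11.7 and 14.1 units in Tsc2 KO libraries against 5.2, 0 and 0 in Tsc2 fl/fl libraries. These groups did not overlap either, on 58 fragments in all for Raptor KO against 11 for its controls and 55 for Tsc2 KO against 6.

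The C1q chains stood less evenly against their controls. C1qb had 23.3, 68.4 and 48.9 units in Raptor KO libraries against 23.1, 17.1 and 21.1 in Raptor fl/fl libraries, so that the lowest knockout library lay just above the highest control. C1qb had 48.4, 72.9 and 99.3 units in Tsc2 KO libraries against 3.5, 0 and 0.9 in Tsc2 fl/fl libraries. The Tsc2 KO libraries stood clear of their controls, and the 2 control groups stood apart from each other as well. C1qc had 2.1, 23.0 and 21.6 units in Raptor KO libraries against 4.3, 20.2 and 5.7 in Raptor fl/fl libraries, which overlapped. C1qc had 25.2, 28.9 and 49.6 units in Tsc2 KO libraries against 5.2, 1.7 and 0 in Tsc2 fl/fl libraries, which did not. C1qa had 1.4, 14.1 and 13.2 units in Raptor KO libraries against 10.8, 32.7 and 7.3 in Raptor fl/fl libraries, with the highest value in a control. C1qa had 12.6, 6.9 and 9.6 units in Tsc2 KO libraries against 3.5, 0 and 3.8 in Tsc2 fl/fl libraries, with no overlap.

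In RNA the 3 C1q genes did not keep 1 ratio to each other. They were chosen on the knockouts, so their shares there are a description with no test. On GRCm38.p6 the 3 genes are neighbours on chromosome 4 in the order C1qb, C1qc, C1qa. C1qa made up 5.26%, 13.4% and 15.7% of the C1q fragments in Raptor KO libraries, against 28.3%, 46.7% and 21.4% in Raptor fl/fl libraries. The groups did not overlap, though these shares rest on 38 to 142 fragments in Raptor KO and 42 to 90 in Raptor fl/fl libraries. The exact 95% intervals of the closest pair overlapped, at 8.88% to 25.0% for replicate 3 of Raptor KO and 10.3% to 36.8% for replicate 3 of Raptor fl/fl. In Tsc2 KO libraries the share was 14.6%, 6.33% and 6.07% of 130 to 214 fragments. In Tsc2 fl/fl libraries all 3 chains together had 14, 2 and 5 fragments, too few to read a share.

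**Figure D2:**
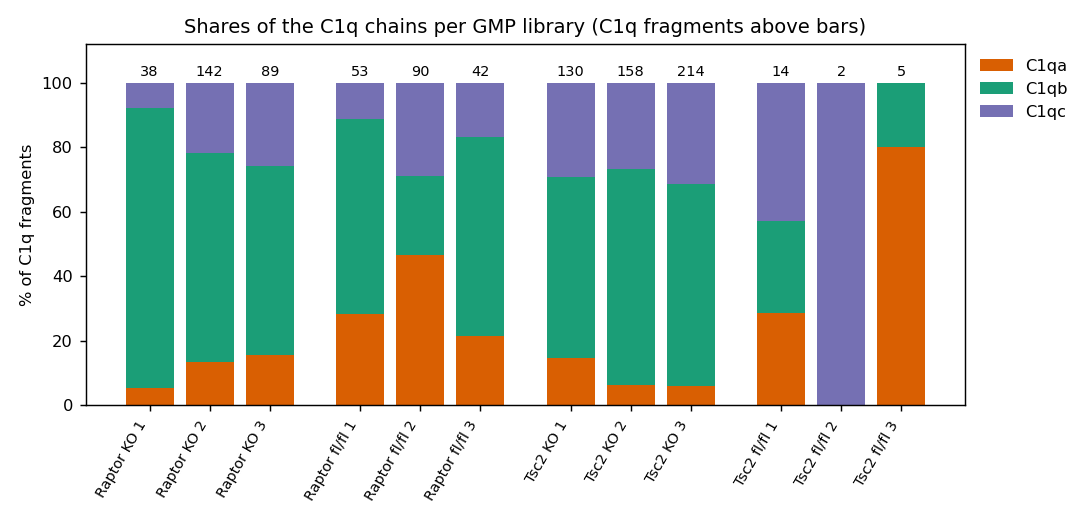
Share of C1q fragments (y axis, percent) from C1qa, C1qb and C1qc in each GMP library (x axis), with the number of C1q fragments above each bar. C1qa takes 5.26% to 15.7% in Raptor KO libraries and 21.4% to 46.7% in Raptor fl/fl libraries, and the Tsc2 fl/fl bars rest on 14 or fewer fragments.

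Mrc1, the mannose receptor gene, lay on opposite sides of its controls in the 2 lines. It had 1.4, 5.2 and 6.6 units in Raptor KO libraries against 22.4, 33.5 and 6.5 in Raptor fl/fl libraries, where the highest knockout library just passed the lowest control. It had 11.3, 5.5 and 8.1 units in Tsc2 KO libraries against 0, 0 and 0.94 in Tsc2 fl/fl libraries, with no overlap on 36 fragments against 1. Counting all members, 4 of 7 (Gpnmb, Lgals3, Trem2 and C1qb) had every Raptor KO library above every Raptor fl/fl library, where 13.3% of all genes tested did. All 7 had every Tsc2 KO library above every Tsc2 fl/fl library, where 14.6% of all genes tested did. Since these contrasts chose the genes, nothing is read from those shares. All 7 passed the filter on low values in GMPs.

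Replicate 1 of Raptor KO had the lowest value of its group for 7 of the 7 genes, with a summed signal of 291 against 890 and 719 in replicates 2 and 3, although it was the most deeply sequenced GMP library. Without it the log2 change over Raptor fl/fl, on log2 of the signal plus 1, was 1.47 for C1qb, 1.36 for C1qc and -0.03 for C1qa, against 1.04, 0.39 and -0.89 with all libraries. Without replicate 2 of Raptor KO that of C1qc was -0.12. Without both Tsc2 libraries that carried Y-linked RNA, the log2 changes of Tsc2 KO over fl/fl were 8.38 for Gpnmb, 4.00 for Lgals3, 2.52 for Trem2, 1.38 for C1qa, 4.58 for C1qb, 3.87 for C1qc and 2.93 for Mrc1. With all 6 libraries they were 8.13, 3.84, 2.90, 1.91, 5.12, 3.74 and 2.85 in that order. With any 1 Tsc2 library left out, Gpnmb ran from 7.89 to 8.61, Lgals3 from 3.30 to 4.17, C1qb from 4.60 to 5.68 and C1qa from 1.18 to 2.30. Replicate 1 of Tsc2 KO had the most Mpo, Elane, Cd34 and Fcgr3 of its group, but less of each than replicates 1 and 3 of Tsc2 fl/fl. It stood above every Tsc2 fl/fl library for all 7 members, which the lack of overlap given above already implies, so nothing further is read from it.

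Between the 12 GMP libraries the members' correlations are given as a description over libraries that share groups and a table. Gpnmb and Lgals3 had a Pearson r of 0.96 on the log scale, and 0.50 once group means were removed. C1qa and Mrc1 had an r of 0.86, and 0.79 once group means were removed. Trem2 and Gpnmb had an r of 0.84, and 0.34 once group means were removed, while Lgals3 and Trem2 had 0.72 and then -0.43. Trem2 and the 3 C1q chains had r between 0.48 and 0.83 with each other, and between 0.54 and 0.76 once group means were removed, highest for Trem2 with C1qc.

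Among 10579 other genes, those most like Gpnmb over the 12 GMP libraries were Ndst2 (r = 0.96), Nsf (0.96) and Pmp22 (0.96). Here and below, the genes were picked by likeness over these libraries, so GMP group means that follow those of the member are part of the choice. Ndst2, a heparan sulfate sulfotransferase gene, averaged 104 and 140 units in Raptor KO and Tsc2 KO, against 38.3 and 31.7 in their fl/fl controls. Those most like Lgals3 were Ndst2 (0.94), Mt1 (0.94) and Gdf15 (0.93). Trem2 was most like Ctss (0.89), Frmd4a (0.86) and Hmgxb3 (0.85), and Ctss, the cathepsin S gene, averaged 300 and 273 units in Raptor KO and Tsc2 KO against 88.5 and 77.8 in the controls. C1qb was most like Folr1 (0.94), Rrp15 (0.92) and Lgmn (0.90), and Lgmn, the gene of the lysosomal protease legumain, averaged 40.0 and 37.5 units in Raptor KO and Tsc2 KO against 14.3 and 3.56 in the controls. Mrc1 was most like Alox12e (0.87), Snupn (0.86) and Rnf181 (0.83). In Hoxb8 cells Ctss averaged 20.1 units in rapamycin and 29.6 in SL0101, against 287 in DMSO.

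Per kilobase of transcript, the genes can be set beside each other. In Tsc2 KO GMPs, Lgals3 averaged 131 ± 17.7 units per kb and Gpnmb 110 ± 37.6, ahead of C1qb at 67.6 ± 23.4 (SD, n = 3). C1qc followed at 28.7 ± 11.0, Trem2 at 11.8 ± 1.11, C1qa at 9.33 ± 2.75 and Mrc1 at 1.55 ± 0.537. In Raptor KO GMPs Lgals3 and Gpnmb also led, at 111 ± 41.4 and 104 ± 56.5 units per kb. In Raptor fl/fl GMPs the first places went to C1qb (18.8 ± 2.79), C1qa (16.3 ± 13.2) and Lgals3 (14.2 ± 6.19), with Gpnmb last at 0.506 ± 0.553. Hoxb8 cells in DMSO had Lgals3 at 263 ± 30.9, Trem2 at 104 ± 17.8 and Gpnmb at 12.6 ± 0.955 units per kb (SD, n = 2).

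In differentiating Hoxb8 cells, which the rule of choice did not use, Gpnmb, Lgals3 and Trem2 all fell under either inhibitor. Gpnmb had 3.67 and 3.36 units in rapamycin and 5.25 and 2.27 in SL0101, against 49.0 and 44.0 in DMSO. Trem2 had 4.58 and 3.36 units in rapamycin and 3.498 and 14.4 in SL0101, against 99.6 and 127.0 in DMSO. Lgals3 had 87.1 and 98.5 units in rapamycin and 77.8 and 51.5 in SL0101, against 342.1 and 404.2 in DMSO. Every inhibitor library lay below both DMSO libraries for these 3 genes, where 27% of all genes tested did so in rapamycin and 28.2% in SL0101.

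In limma, on log2 of the signal plus 1, Gpnmb in rapamycin fell by 3.39 (SE 0.52, adjusted p = 1.0e-04), Lgals3 by 1.99 (SE 0.21, adjusted p = 1.5e-06) and Trem2 by 4.52 (SE 0.50, adjusted p = 2.1e-06). In SL0101, against the same DMSO libraries, Gpnmb fell by 3.39 (adjusted p = 1.7e-04), Lgals3 by 2.53 (adjusted p = 6.4e-08) and Trem2 by 3.77 (adjusted p = 3.2e-05). The 3 of 7 members that could be tested were thus lower in each inhibitor, where 6.35% of all genes tested were called lower in rapamycin and 5.79% in SL0101. They had signal in all 6 libraries, so the filter on low values did not favour any group. All 6 calls held with any 1 library left out, at adjusted p up to 0.0191. Without the expression trend and robust estimation, Trem2 in SL0101 had an adjusted p of 0.0688.

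Between the inhibitors, given at different doses, none of the 3 genes passed the limma test, and 1, Lgals3, had an unadjusted p under 0.05. Another weighting of the same libraries, limma's voom, also called 0. The log2 difference of rapamycin over SL0101 was -0.0038 for Gpnmb (95% interval -1.08 to 1.08, adjusted p = 1), 0.54 for Lgals3 (0.0981 to 0.984, adjusted p = 0.118) and -0.75 for Trem2 (-1.79 to 0.280, adjusted p = 0.38). Across all genes 8.87% were called between the inhibitors. The intervals for Gpnmb and Trem2 span both directions, and the SL0101 libraries of Trem2 lay far apart.

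**Figure D3:**
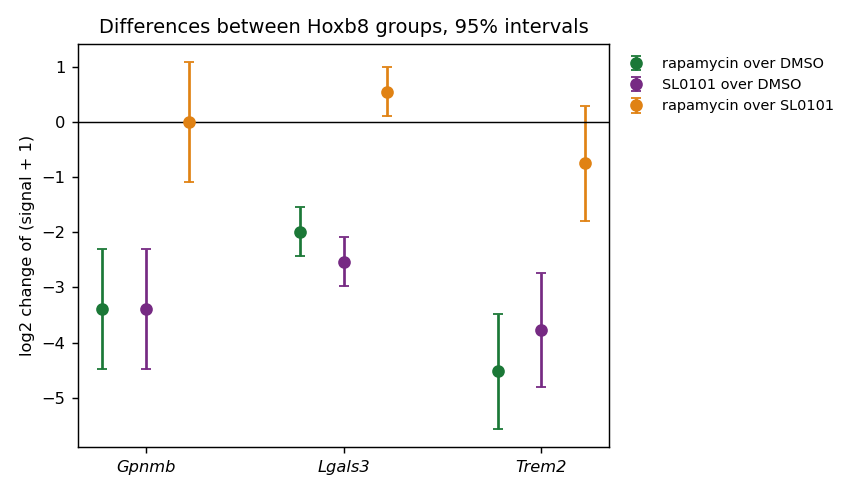
Log2 change of signal plus 1 (y axis, points) with 95% intervals (bars) for Gpnmb, Lgals3 and Trem2 (x axis) in the 3 comparisons of Hoxb8 groups, 2 libraries each. All 6 changes over DMSO lie between -1.99 and -4.52, and the differences of rapamycin over SL0101 lie between -0.75 and 0.54.

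C1q and Mrc1 were not read to any extent in Hoxb8 cells. C1qa and Mrc1 were at 0 in all 6 libraries, where a count of 0 allows up to 3 fragments, or 2.27 to 3.36 units by library. C1qb had 1.83 units in replicate 1 of rapamycin and C1qc 0.79 in replicate 1 of DMSO, and both were at 0 elsewhere. These 4 genes were not tested, and no difference could be seen at this depth.

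Set across the 7 groups by mean, Gpnmb ran Tsc2 KO, Raptor KO, Hoxb8 DMSO, SL0101, rapamycin, Raptor fl/fl and Tsc2 fl/fl. The libraries of neighbours in that order overlapped except between Raptor KO and DMSO and between DMSO and SL0101. Lgals3 and Trem2 were highest in Hoxb8 DMSO, at 373 ± 43.9 and 113 ± 19.4 units, clear of both knockout groups. Below DMSO, Lgals3 ran Tsc2 KO, Raptor KO, rapamycin, SL0101, Raptor fl/fl and Tsc2 fl/fl, and SL0101 was separate from both of its neighbours. Trem2 ran Raptor KO, Tsc2 KO, SL0101, rapamycin, Raptor fl/fl and Tsc2 fl/fl below DMSO, and each of these overlapped the next. C1qb and C1qc were highest in Tsc2 KO at 73.5 ± 25.4 and 34.6 ± 13.2 units. C1qa and Mrc1 were highest in Raptor fl/fl at 16.9 ± 13.8 and 20.8 ± 13.6 units, where the libraries overlapped those of Tsc2 KO. The order across cell types rests on 1 table normalized over all libraries.

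Genes of the lysosome and of the MITF and TFE factors were taken from a list of 30, all tested in GMPs. In Tsc2 KO GMPs 7 rose and 0 fell, where 5.26% of all genes tested rose and 7.12% fell; the median log2 change was 0.34 against -0.02 over all genes. Scpep1, a lysosomal carboxypeptidase, averaged 116 ± 4.74 units in Tsc2 KO and 50.4 ± 10.1 in Tsc2 fl/fl (log2 change 1.21, limma adjusted p = 0.0073). Psap, the precursor of the saposins, averaged 627 ± 43.9 in Tsc2 KO and 337 ± 39.5 in Tsc2 fl/fl (log2 change 0.90, limma adjusted p = 0.0011). Without replicate 3 of Tsc2 KO the count that rose was 4, and the 0 that fell were 3 without replicate 1 of Tsc2 KO and 2 without replicate 2 of Tsc2 fl/fl. In voom 0 fell as well, and 15 of the 30 had an unadjusted p under 0.05 in either direction. The count that rose was also 4 without the expression trend and robust estimation. In Raptor KO GMPs 1 rose and 0 fell, where 1.53% and 2.42% of all genes did, with a median of 0.16 against 0.03. It was Psap, with 583, 931 and 810 units in Raptor KO against 326, 329 and 321 in Raptor fl/fl (log2 change 1.22, limma adjusted p = 2.7e-04).

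Of the 4 MITF and TFE genes themselves, 1 passed the test in the knockouts. Tfe3 averaged 109 ± 37.8 units in Tsc2 KO and 43.3 ± 16.8 in Tsc2 fl/fl GMPs (SD, n = 3 each; log2 change 1.33, limma adjusted p = 0.0172), a call lost without replicate 1 of Tsc2 fl/fl (0.10), replicate 2 of Tsc2 KO (0.085) or replicate 3 of Tsc2 KO (0.11). Mitf, Tfeb and Tfec did not pass in either knockout, with log2 changes of 1.29, -0.35 and -0.31 in Raptor KO and -1.33, 0.13 and -1.78 in Tsc2 KO. In Hoxb8 cells Mitf averaged 14.9 ± 10.0 units in rapamycin and 15.2 ± 4.41 in SL0101, against 41.9 ± 11.1 in DMSO (SD, n = 2 each; limma adjusted p = 0.0234 and 0.0453). Of the 4 libraries behind each, leaving out 3 ended the call in rapamycin (replicate 1 of DMSO, 0.28; replicate 2 of DMSO, 0.092; replicate 2 of rapamycin, 0.25) and leaving out any 1 ended it in SL0101 (0.10 to 0.35). Tfeb, at 23.8 and 25.9 units in rapamycin and SL0101 against 44.0 in DMSO, did not pass in either.

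In Hoxb8 cells the same lysosomal list held 1 gene that rose and 11 that fell of 29 tested in rapamycin, where 5.4% of all genes rose and 6.35% fell, with a median log2 change of -0.41 against -0.01 over all genes. Psap averaged 821 ± 137 units in rapamycin and 3372 ± 187 in DMSO (SD, n = 2 each; log2 change -2.05, limma adjusted p = 2.6e-09), and 880 ± 19.5 in SL0101 (-1.94, limma adjusted p = 7.7e-09). Fnip2, a partner of folliculin, averaged 33.2 ± 6.83 units in rapamycin and 151 ± 19.9 in DMSO (log2 change -2.16, limma adjusted p = 8.4e-06). In SL0101 0 rose and 7 fell, where 5.09% and 5.79% of all genes did, with a median of -0.34 against -0.02. The count of 11 was 3 without replicate 1 of DMSO, 3 without replicate 2 of DMSO and 4 without replicate 2 of rapamycin. The count of 7 was 2 without replicate 1 of DMSO, 3 without replicate 2 of DMSO, and 4 without either SL0101 library. Without the expression trend and robust estimation the 11 were 2 and the 7 were 1. Each against its own controls, Gpnmb and Psap thus stood higher in both knockouts and lower in both inhibitors, though Gpnmb was among the genes chosen on the knockouts. Psap under either inhibitor was still above its mean in Tsc2 KO GMPs.

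A list of 28 genes tied to Trem2 and to lipid-laden macrophages, without the members, gave 3 that rose in Raptor KO GMPs and 9 that rose and 2 that fell in Tsc2 KO GMPs, all 28 being tested. The median log2 changes were 0.36 and 0.23. Atp6v0d2, a proton pump subunit of macrophages and osteoclasts, had 3.54, 26.01 and 9.40 units in Raptor KO and 41.8, 18.6 and 28.9 in Tsc2 KO, and was at 0 in all 6 fl/fl libraries. Against 3 fragments over each control group, it was at least 16.9-fold higher in Raptor KO and at least 33.7-fold higher in Tsc2 KO (limma adjusted p = 0.0046 and 1.4e-04). Without replicate 2 of Raptor KO the first bound was 8.41. For either line the other line's 3 knockout libraries alone met the filter on low values. Of 4 cathepsin genes in the list, 3 rose in Tsc2 KO, with log2 changes of 1.98 for Ctsl, 1.40 for Ctsb and 1.09 for Ctsd, and Ctsz did not pass (0.04, limma adjusted p = 0.93), nor did Ctsa of the lysosomal list (0.11, limma adjusted p = 0.76). Apoe, the lipid carrier, averaged 2689 ± 275 units in Raptor KO and 1347 ± 225 in Raptor fl/fl (limma adjusted p = 0.0416), but each of the 6 libraries, when left out, took the p to between 0.073 and 0.16. The 9 that rose in Tsc2 KO were 6 to 9 with 1 library left out, fewest without replicate 3 of Tsc2 KO, and the 2 that fell were 4 without replicate 1 of Tsc2 KO and 1 without any other library but replicate 2 of Tsc2 fl/fl. The count of 3 was 2 without replicate 1 of Raptor KO and 1 without any other of the 6 libraries.

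In Hoxb8 cells that list held 13 genes that fell and 1 that rose of 25 tested in rapamycin, and 16 that fell and 1 that rose in SL0101. The medians were -0.92 and -0.69, against -0.01 and -0.02 over all genes. For this and later list counts in Hoxb8 cells, 5.4% of all genes tested rose and 6.35% fell in rapamycin. In SL0101 5.09% rose and 5.79% fell. A count of 1 or 2 is, by itself, too small to set against these shares. Lpl, lipoprotein lipase, had 38.5 and 26.9 units in rapamycin and 56.8 and 57.6 in SL0101, against 232 and 236 in DMSO (limma adjusted p = 4.3e-08 and 9.7e-06). Atp6v0d2 was at 0.916 and 0 units in rapamycin and 0 and 4.55 in SL0101, against 1.58 and 1.66 in DMSO, and did not pass. The count of 13 was 8 without replicate 2 of DMSO, and 10 or 11 without any other of its libraries. The count of 16 was 7 without replicate 1 of DMSO, 4 without replicate 2 of DMSO, 8 without replicate 1 of SL0101 and 13 without replicate 2 of SL0101. Without the expression trend and robust estimation each was 2.

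**Figure D4:**
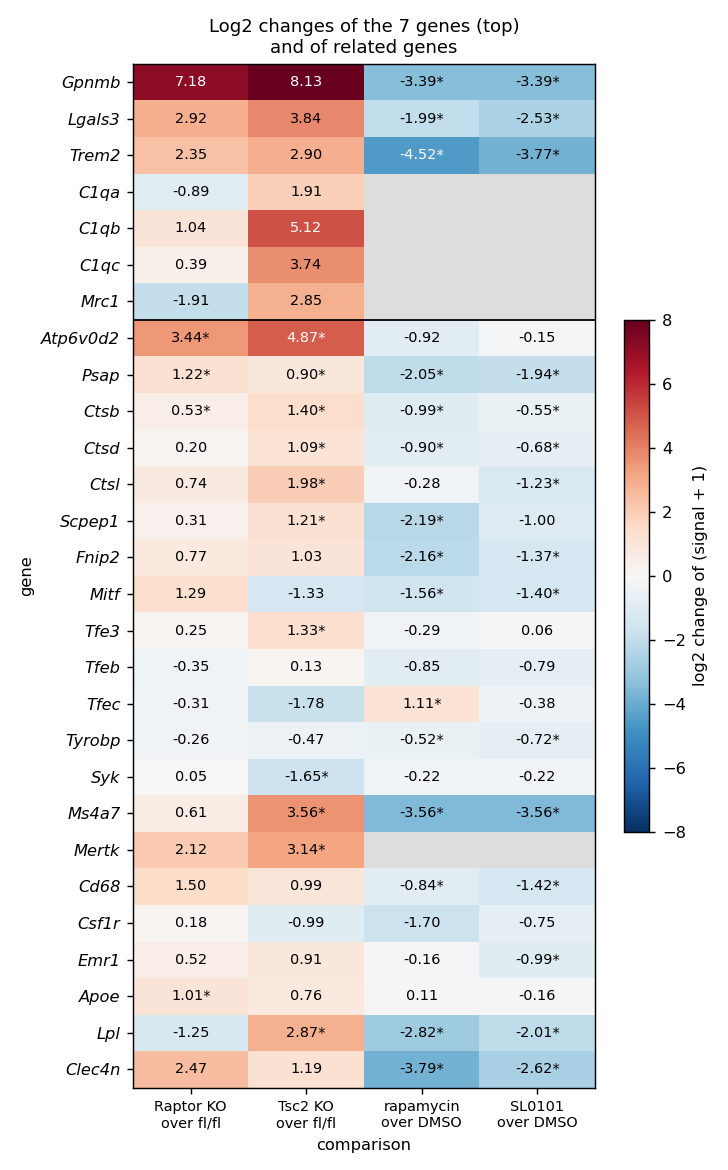
Log2 change of signal plus 1 (colour and printed value) for the 7 genes (above the line) and related list genes (y axis) in 4 comparisons (x axis). A star marks limma adjusted p under 0.05, the members carry no test in the knockouts, grey cells were not tested, and the related genes were chosen with their values known. Gpnmb, Lgals3 and Trem2 are positive in both knockouts and negative in both inhibitors, as is Psap.

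Tyrobp, the signalling partner of Trem2, did not pass the test in GMPs. It averaged 368 ± 36.2 units in Raptor KO against 441 ± 41.1 in Raptor fl/fl, and 231 ± 143 in Tsc2 KO against 305 ± 121 in Tsc2 fl/fl (SD, n = 3 each; limma adjusted p = 0.782 and 0.506). In the list of Trem receptors and their signalling genes 9 of 21 tested fell and 1 rose in Tsc2 KO, with a median log2 change of -1.11. Trem3, a receptor gene of the same family, averaged 14.1 ± 12.3 units in Tsc2 KO and 101.9 ± 54.4 in Tsc2 fl/fl (log2 change -2.96, limma adjusted p = 0.0078), and Syk, the kinase downstream of Tyrobp, had 113, 48.8 and 60.7 units in Tsc2 KO against 230, 233 and 200 in Tsc2 fl/fl. Leaving out single libraries gave 6 to 12 that fell. In Raptor KO 1 rose and 0 fell, and that call, for Ms4a6d, was lost without any of the 6 libraries but replicate 1 of Raptor KO.

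In Hoxb8 cells Tyrobp averaged 2531 ± 699 units in rapamycin and 2159 ± 18.6 in SL0101, against 3571 ± 550 in DMSO (SD, n = 2 each; limma adjusted p = 0.0402 and 0.0057). Of 19 tested genes of that list 5 fell in rapamycin and 6 in SL0101, and none rose. The Tyrobp call in rapamycin was lost without replicate 1 of DMSO (0.0876), replicate 2 of DMSO (0.422) or replicate 1 of rapamycin (0.394), and that in SL0101 without replicate 2 of DMSO (0.182) or replicate 1 of SL0101 (0.0703). Without replicate 2 of DMSO 0 of the list were called in either comparison. Without replicate 1 of DMSO the counts were 2 and 3, and without replicate 1 of SL0101 the second was 2. Ms4a7, a membrane gene of macrophages, was at 0 in all 4 inhibitor libraries against 8.69 and 13.3 units in DMSO, at least 7.27-fold lower in rapamycin and at least 9.02-fold lower in SL0101. Ms4a7 passed the filter on low values only through the DMSO libraries, so its calls carry no weight.

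Of the complement list, which left out the C1q chains, 18 genes were tested in GMPs. In Raptor KO 1 rose and 0 fell: C4b, a C4 gene of the classical pathway, had 12.7, 14.1 and 5.64 units in Raptor KO and was at 0 in all Raptor fl/fl libraries, at least 14.1-fold higher. C4b passed the filter on low values only through the Raptor KO libraries where it was high, so its call carries no weight, and it could not be tested once a Raptor KO library was left out. It was at 0 in all Tsc2 KO libraries. In Tsc2 KO 2 rose and 3 fell, where 5.26% and 7.12% of all genes tested did. C3ar1, the C3a receptor, had 15.9, 12.4 and 26.7 units in Tsc2 KO against 0, 0.846 and 1.88 in Tsc2 fl/fl (log2 change 3.40, limma adjusted p = 0.0029). The 3 that fell were C3, the central component, Cfp, the properdin gene, and Itgam, a chain of complement receptor 3, and all were lost without replicate 1 or 3 of Tsc2 fl/fl, or replicate 2 or 3 of Tsc2 KO, and the count that rose was 1 without any of those 4. In Hoxb8 cells 8 of 15 tested fell and 2 rose in rapamycin, and 6 fell and 2 rose in SL0101. The 8 were 3, 2 and 3 without replicate 1 of DMSO, replicate 2 of DMSO and replicate 2 of rapamycin, and the 6 were 3, 2 and 2 without replicate 1 of DMSO, replicate 2 of DMSO and replicate 1 of SL0101.

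Among 7 other galectin genes tested in GMPs, 1 rose and 0 fell in Tsc2 KO: Lgals9 had 2017, 2796 and 2461 units in Tsc2 KO against 1082, 1575 and 1272 in Tsc2 fl/fl (log2 change 0.89, limma adjusted p = 5.5e-04). That count of 1 is, by itself, too small to set against the 5.26% of all genes tested that rose in Tsc2 KO. In Raptor KO limma called 0 of the 7 and voom 0, with 3 at an unadjusted p under 0.05. Among 19 other lectin and scavenger receptor genes, limma called 0 in Raptor KO, with 3 at an unadjusted p under 0.05 and 1 called by voom. In Tsc2 KO 3 fell and 0 rose, and the count that fell was 0 without replicate 2 or 3 of Tsc2 KO, 1 without replicate 1 or 3 of Tsc2 fl/fl and 6 without replicate 1 of Tsc2 KO. In Hoxb8 cells 5 of 12 tested fell and 2 rose in rapamycin, and 4 fell and 0 rose in SL0101, and the 5 were 3 without either DMSO library. Clec4n, the dectin-2 gene, had 19.2 and 17.9 units in rapamycin and 42.0 and 43.9 in SL0101, against 228 and 320 in DMSO (limma adjusted p = 1.8e-09 and 5.9e-07). Of 5 other galectins tested there, 1 fell in rapamycin and 2 in SL0101. The 1 was lost without replicate 2 of DMSO or replicate 1 of rapamycin, and the 2 were 0 without replicate 2 of DMSO or replicate 1 of SL0101 and 1 without replicate 1 of DMSO.

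Other resident macrophage genes gave a mixed picture beside the members. Of 28 tested in GMPs, 1 rose and 4 fell in Raptor KO, and 5 rose and 2 fell in Tsc2 KO. Slc40a1, the iron exporter, had 40.3, 34.9 and 36.6 units in Raptor KO against 105, 128 and 110 in Raptor fl/fl (limma adjusted p = 3.0e-04), and 270, 338 and 320 in Tsc2 KO against 84.1, 135 and 113 in Tsc2 fl/fl (limma adjusted p = 1.9e-04), on opposite sides of the controls as Mrc1 was. Fcna, a ficolin of macrophages, was at 0 in all Raptor KO libraries against 29.6, 8.56 and 17.0 in Raptor fl/fl. Mertk, the receptor for apoptotic cells, was at 0 in all 6 fl/fl libraries and had 5.97, 8.94 and 8.89 units in Tsc2 KO and 0, 5.20 and 12.2 in Raptor KO. Mertk is counted among the 5 that rose in Tsc2 KO, but it met the filter on low values only with the help of the Tsc2 KO libraries where it was high, and the call was lost without replicate 3 of Tsc2 KO. Folr2, of the same list, averaged 4.19 ± 0.781 units in Tsc2 KO and was at 0 in Tsc2 fl/fl. It met that filter only through the Tsc2 KO libraries, so a call of Folr2 would carry no weight. Emr1, Csf1r and Cd68, defining macrophage genes, were read in every GMP library and did not pass in either knockout. Cd68 had 116, 190.3 and 193.6 units in Raptor KO against 57.7, 68.5 and 46.3 in Raptor fl/fl (limma adjusted p = 0.0625), and 57.7, 55.7 and 54.8 in Tsc2 KO against 49.4, 10.2 and 41.4 in Tsc2 fl/fl (log2 change 0.99, limma adjusted p = 0.148), with no overlap in either line. Emr1 and Csf1r had log2 changes of 0.52 and 0.18 in Raptor KO and 0.91 and -0.99 in Tsc2 KO. The 5 that rose in Tsc2 KO were 2 without replicate 2 of Tsc2 KO, 1 without replicate 3 of Tsc2 KO and 2 without both libraries with Y-linked RNA. The 4 that fell in Raptor KO were 2 without replicate 1 or 2 of Raptor fl/fl or replicate 3 of Raptor KO.

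The summed signal of the 32 macrophage genes, members left out, was 799 to 1116 units in Raptor KO against 890 to 913 in Raptor fl/fl, and 916 to 1118 in Tsc2 KO against 528 to 1024 in Tsc2 fl/fl. Of the 32, 6 were at 0 throughout Raptor KO and 3 throughout Raptor fl/fl, and 3 throughout Tsc2 KO and 8 throughout Tsc2 fl/fl. Markers of some other cells moved as well. For all list counts in GMPs, the shares over all genes tested were 1.53% that rose and 2.42% that fell in Raptor KO. In Tsc2 KO they were 5.26% and 7.12%. A count of 1 or 2 in any of the GMP lists, above or below, is, by itself, too small to set against these shares. The B, T and NK cell list summed to 1200 to 1351 units in Raptor KO against 2077 to 2279 in Raptor fl/fl, and 248 to 863 in Tsc2 KO against 1273 to 1672 in Tsc2 fl/fl. In each knockout 6 of its 13 tested genes fell, Ms4a1 among them, which was read in all fl/fl libraries. The erythroid and megakaryocyte list had 7 of 15 that fell in Raptor KO and 3 that fell and 3 that rose in Tsc2 KO, and the dendritic list had 2 and 5 of 15 that fell and 1 that rose in each. The neutrophil list had 2 of 13 that fell in each knockout, but in Tsc2 KO its median log2 change was 1.12 and it summed to 1151 to 3618 units in Tsc2 KO against 577 to 1874 in Tsc2 fl/fl. In Raptor KO its median was -2.03, with 722 to 869 units in Raptor KO against 900 to 2169 in Raptor fl/fl. The basophil and mast cell list had 2 of 14 that rose in Tsc2 KO, and in Raptor KO limma and voom called 0, with 4 at an unadjusted p under 0.05 in limma and 5 in voom. It summed to 15066 to 18766 units in Raptor KO against 5873 to 11773 in Raptor fl/fl, without overlap, and 4339 to 10986 in Tsc2 KO against 3377 to 5389 in Tsc2 fl/fl. The stroma and endothelium list had 1 of 10 that fell in Tsc2 KO. With 1 library left out, the B, T and NK list gave counts of 4 to 6 in Raptor KO and 5 to 7 in Tsc2 KO, and the erythroid and megakaryocyte list 5 to 7 that fell in Raptor KO. Its 3 that rose in Tsc2 KO were 0 without replicate 1 or 3 of Tsc2 fl/fl or replicate 2 or 3 of Tsc2 KO, the dendritic 5 were 2 without replicate 3 of Tsc2 KO, and the neutrophil 2 in Raptor KO were 0 without any Raptor KO library and in voom, and 1 without replicate 2 of Raptor fl/fl. The neutrophil 2 in Tsc2 KO were 0 without replicate 1 or 3 of Tsc2 fl/fl or replicate 3 of Tsc2 KO, 1 without replicate 2 of Tsc2 KO and 3 without either other library. The part of these cells in the members' levels was not tested.

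In Hoxb8 cells the macrophage list summed to 17495 to 19509 units in rapamycin and 16356 to 17432 in SL0101, against 29564 to 33211 in DMSO. Of its 17 tested genes 7 fell and 1 rose in rapamycin, and 8 fell and 2 rose in SL0101. Those 7 were 4 and 3 without replicates 1 and 2 of DMSO, and those 8 were 4, 4 and 5 without replicate 1 of DMSO, replicate 2 of DMSO and replicate 1 of SL0101. Both counts include Maf, which averaged 0.458 ± 0.648 units in rapamycin and 0 in SL0101, against 6.52 ± 2.52 in DMSO. Maf passed the filter on low values only through the DMSO libraries, so its calls carry no weight. Of 14 neutrophil genes 5 fell in rapamycin (2 without replicate 2 of DMSO) and 10 in SL0101, and that list summed to 65971 to 99307 units in rapamycin and 56148 to 83969 in SL0101, against 118711 to 163689 in DMSO. Without the expression trend and robust estimation, each list named here had 0 to 2 genes called in either direction in Hoxb8 cells. Kit, a progenitor receptor, had 1225 and 1046 units in rapamycin and 934 and 1099 in SL0101, against 541 and 480 in DMSO. Some genes of macrophages and of neutrophils thus moved with Gpnmb, Lgals3 and Trem2 there. Emr1 averaged 532 units in rapamycin and 591 in DMSO (limma adjusted p = 0.58), but fell to 296 in SL0101 (adjusted p = 1.6e-04). Csf1r passed in neither inhibitor (limma adjusted p = 0.067 and 0.35), while Cd68 fell in both (0.014 and 2.1e-04). The macrophage genes that rose were Cd14 in both and Vcam1 in SL0101. Lyz2 alone averaged 23742 units of the macrophage sum in DMSO, against 13263 in rapamycin and 11606 in SL0101. The part of these genes in the result was not tested.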

How the data were processed

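The authors deposited 1 table of gene values for 18 libraries. Per the submitters' processing notes, BWA, TopHat2 2.0.10, Cufflinks 2.2.1 and Cuffnorm were used; the build is, in the sources used here, not given. By the pattern of its values, the deposited signal is a fragment number scaled per library: 98.9% to 99.0% of non-zero values were whole multiples of 1 step (tolerance 0.01), from which fragments were recovered. GMPs and Hoxb8 cells had a limma 3.58.1 fit each (R 4.3.3) on log2(value + 1), with 4 and 3 groups, expression trend and robust estimation, at a Benjamini-Hochberg threshold of 0.05. Genes were tested at a value of 1 in at least 3 GMP or 2 Hoxb8 libraries, 13237 and 11804 genes. The fits were tested on simulated data.

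The members and lists were chosen with earlier results of these data known. The rule for names took up to 4 passing genes per list and comparison by size of change, a set of regulators and macrophage genes regardless of the test, cathepsins, and the 3 genes most like a member; the text names some of these. Syk, Slc40a1, Lyz2, Kit, Cd34, Mpo, Elane and Fcgr3 were chosen after their values were seen. Lists overlap in some genes. Folds against a group at 0 use 3 fragments over that group. Per-kilobase values use GENCODE transcript lengths. Alternatives were other pseudocounts, filters, variance models, normalization, library sets, a replicate block, left-out libraries and, added after seeing the data, voom.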

Additional observations from a re-analysis of the deposited data

Results flagged for a closer look

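The log2 change of C1qa over its fl/fl controls was lower by 2.81 in Raptor KO than in Tsc2 KO (difference -2.81), and that of Mrc1 by 4.76 (difference -4.76). They drew attention because, in linear signal, every Raptor KO library lay below the mean of its fl/fl controls and every Tsc2 KO library above the mean of its own. The difference was not tested. For C1qa, 2 of the 3 Raptor KO libraries lay above 2 of the 3 Raptor fl/fl libraries, and on the log2 scale replicate 2 of Raptor KO also lay above the fl/fl mean. For Mrc1, 1 Raptor KO library just passed 1 Raptor fl/fl library. The Raptor fl/fl means (16.9 and 20.8 units) stood above the Tsc2 fl/fl means (2.41 and 0.314).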

How the results depend on the processing

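Member calls in Hoxb8 cells held in rapamycin under all 14 alternatives and in SL0101 under 13 of 14 for Trem2 and 14 for the others. The number of genes called across the table depended far more on the fit. Raptor KO had 522, with 215 without trend and robust estimation, 821 with all 18 libraries, 1200 with only the groups compared and 146 to 402 with 1 library left out. Tsc2 KO had 1638, with 929 without trend, 471 with only the groups compared and 601 to 2498 with 1 left out. Rapamycin over DMSO had 1386, with 188 without trend, 775 with all 18 libraries and 540 to 1164 with 1 left out. SL0101 over DMSO had 1284, with 97, 640 and 323 to 868 in the same order. Rapamycin over SL0101 had 1047, with 14 without trend, 298 with all 18 libraries, 525 with only the groups compared and 128 to 863 with 1 left out. The cause was not tested. The sign of rapamycin over SL0101, never called, turned for Gpnmb with a pseudocount of 0.5 (0.0063), with voom (0.0811), without replicate 2 of rapamycin (0.0452) and without replicate 1 of SL0101 (0.462), and for Trem2 without replicate 2 of SL0101 (0.133). With 1 library left out these values ran from -0.47 to 0.46 for Gpnmb and from -1.64 to 0.13 for Trem2.

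Same-numbered libraries had deviations correlated at 0.010 to 0.047 for Raptor and 0.044 to 0.046 in Hoxb8 cells. For Tsc2 the values were 0.217, 0.245 and -0.032 for replicates 1, 2 and 3, and replicate 2 of either Tsc2 group carried Y-linked RNA. Whether the Tsc2 replicate numbers mark a pairing is not given, and the main fits used none. A replicate block gave 706, 1882, 1857 and 1828 calls for the knockouts and inhibitors in that order and 1691 between inhibitors, and changed no member call. Count tests on recovered fragments were not run. Depth limits Trem2, C1qa, C1qc and Mrc1 in GMPs, where control groups held 1 to 82 fragments each. It also limits the size of the changes of Gpnmb, on 7 fragments in Raptor fl/fl and 2 in Tsc2 fl/fl, and of C1qb, on 5 in Tsc2 fl/fl.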
